A study of Homo sapiens with 10 samples.

Results

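The response of RD cells to a day of ERK inhibition was measured by mRNA sequencing, in 4 of the 10 libraries of the study. RD is an established human line grown from an embryonal rhabdomyosarcoma, a soft tissue tumour with features of immature skeletal muscle, and it is known to carry an activating NRAS mutation. Cells were given either 300 nM SCH772984, a small molecule that blocks ERK kinases, or the vehicle DMSO, and were collected after 24 h, with 2 libraries per group. The 4 libraries were chosen by their labels, and every gene row of the count table was kept, so the comparison covers 23228 genes, of which 14761 had enough counts to be tested. The other 6 libraries of the study came from RD cells that received a nonspecific siRNA or either of 2 NRAS siRNAs, at 10 nM, and were collected at 48 h. They entered the fit to help estimate the spread and served as a second comparison. All groups come from a single cell line, the drug was tested at 1 dose and 1 time, and no label states that replicates were separate cultures. The p-values therefore reflect how far these libraries differ, and part of that spread may be technical.

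The ERK kinases are the last of the RAS, RAF and MEK cascade. Active ERK phosphorylates transcription factors of the ETS, AP-1 and SRF-associated families and induces immediate-early genes, cyclin D1 and a set of its own inhibitors, among them DUSP phosphatases and Sprouty proteins. In myoblasts, high ERK activity is known to favour proliferation over differentiation.

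The 4 libraries held 23224063 to 29423680 counts in genes, and the floor of 3 counts, which stands in for a 0, equals 0.102 to 0.129 CPM, the count scaled to library size. Replicates had Pearson's r of 0.992 in DMSO and 0.993 with the inhibitor on log2 CPM across genes, and both pairs differed by more than sampling noise. Of 14 rhabdomyosarcoma markers, 7 reached 1 CPM in DMSO and 8 with the inhibitor. They summed to 3191 and 3915 CPM in DMSO and 2049 and 2069 CPM with the inhibitor, mostly VIM, which encodes vimentin and fell by 0.88 (SE 0.11), and of 9 tested 2 fell and 1 rose. DES, the muscle intermediate filament, had 520 to 895 counts per library and PAX3, a regulator of muscle precursors, 304 to 393. The defining muscle regulators MYOD1 and MYOG were near the floor, with 2 to 5 and 0 to 2 counts per library. MYOD1 and MYOG therefore do not bear out a muscle lineage. The identity of the line was taken from the labels and was not tested. Blood and immune markers summed to 5.02 to 7.63 CPM over 16 genes in the 4 libraries, with PTPRC at 1 to 3 counts. Of 16 epithelial markers, KRT5 and KRT19 had 0 counts in all 4 libraries and KRT18 held most of the summed 240 to 384 CPM. None of the 6 epithelial markers tested passed the test.

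With the inhibitor, 4128 of 14761 tested genes (28.0%) changed at a Benjamini-Hochberg adjusted p under 0.05 by the quasi-likelihood test of edgeR. Of these, 1948 (13.2%) were higher and 2180 (14.8%) lower. Changes of at least 2-fold were fewer, 1236 genes (8.37%), and leaned upward, with 827 higher (5.60%) and 409 lower (2.77%). At larger sizes 255 genes rose and 127 fell at least 4-fold, 96 rose and 49 fell at least 8-fold, and 40 rose and 16 fell at least 16-fold. Direction also went with abundance. Among the 2661 genes above 100 CPM over the 4 libraries, 683 (25.7%) fell and 316 (11.9%) rose, and among the 1534 genes under 1 CPM, 62 fell and 172 rose, where depth limits the test. The median log2 fold change of all tested genes was 0.001. The counts over gene lists that follow are to be set against 13.2% higher and 14.8% lower over all tested genes. A gene near 0 in one group could enter the test through the other group alone, so the tested members of a list include genes that had to differ. The total leaned on single libraries, at 1924 without DMSO replicate 2 and 1875 without inhibitor replicate 1, and 1872 and 1844 of the 4128 genes stayed past the threshold there.

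**Figure D1:**
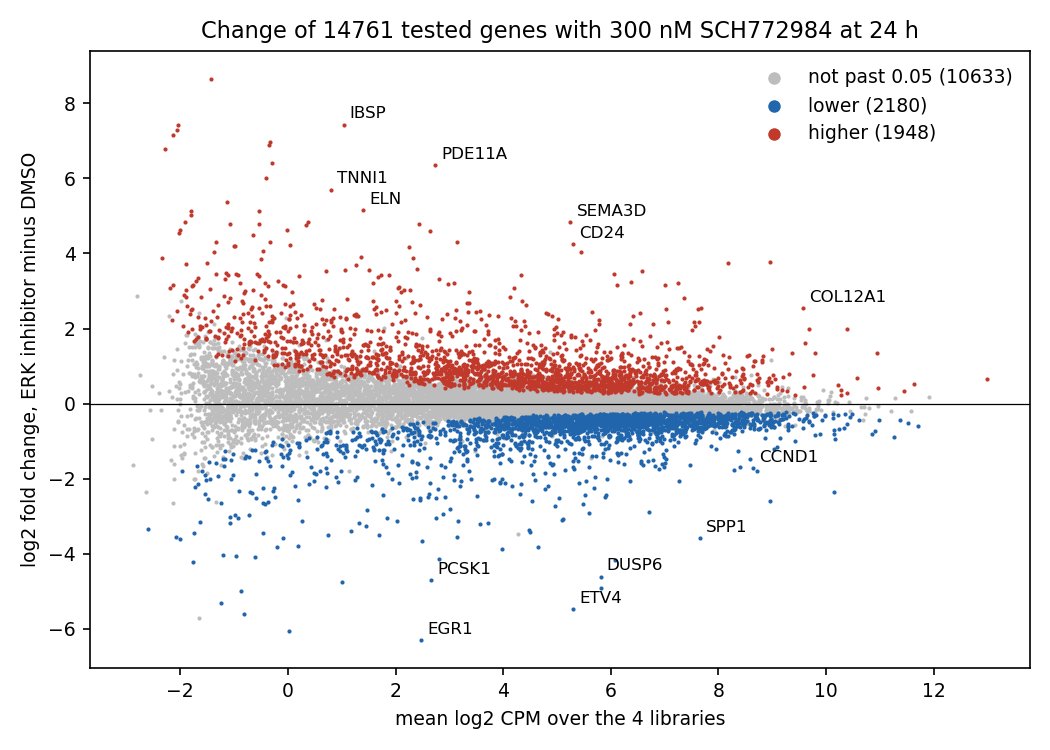
Log2 fold change with 300 nM SCH772984 (vertical axis) against the mean log2 CPM over the 4 libraries (horizontal axis), 1 point per tested gene. The 1948 genes that rose are red, the 2180 that fell are blue and the rest are grey, and above 100 CPM the 683 blue points outnumber the 316 red ones, while the largest rises are among genes of low abundance.

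The clearest falls were in the genes by which ERK signalling restrains itself. All 6 tested members of the Sprouty and SPRED family, which block signalling between receptors and RAF, fell, with a median log2 fold change of -2.20, and each stayed past the threshold when any 1 library was left out. SPRY2 stood at 320 and 255 CPM in the DMSO libraries and at 17.8 and 14.3 CPM with the inhibitor. Its log2 fold change was -4.16 (SE 0.21, adjusted p = 2.21e-06), beside -4.92 (SE 0.18) for SPRY4, and the groups did not overlap for either gene, as was so in one direction or the other for 66.8% of tested genes. SPRY1 went from 65.8 and 54.6 CPM to 12.1 and 13.0 CPM, a change of -2.26 (SE 0.21). The SPRED genes spanned a wider range of sizes, with SPRED3 at -2.14 (SE 0.29), SPRED2 at -1.04 (SE 0.11) and SPRED1 at -0.93 (SE 0.10).

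The DUSP phosphatases split. DUSP6, which acts on cytoplasmic ERK, had 292 and 265 CPM in DMSO and 13.6 and 9.28 CPM with the inhibitor. The nuclear phosphatases DUSP4 and DUSP5 fell, with log2 fold changes of -2.42 (SE 0.24) and -2.19 (SE 0.32). In the opposite direction, DUSP10, which prefers the stress kinases p38 and JNK, rose from 4.75 and 5.73 CPM to 13.7 and 14.6 CPM, a change of 1.43 (SE 0.18, adjusted p = 0.000457). Of 10 members 3 fell and 4 rose, with a median of 0.016. The 3 falls held without any single library, but the rises numbered 2 without DMSO replicate 1, 1 without DMSO replicate 2, and 2 without either inhibitor library. DUSP1, an immediate-early phosphatase, had 98.0 and 126 CPM in DMSO and 103 and 148 CPM with the inhibitor, and did not pass at 0.16 (SE 0.23).

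**Figure D2:**
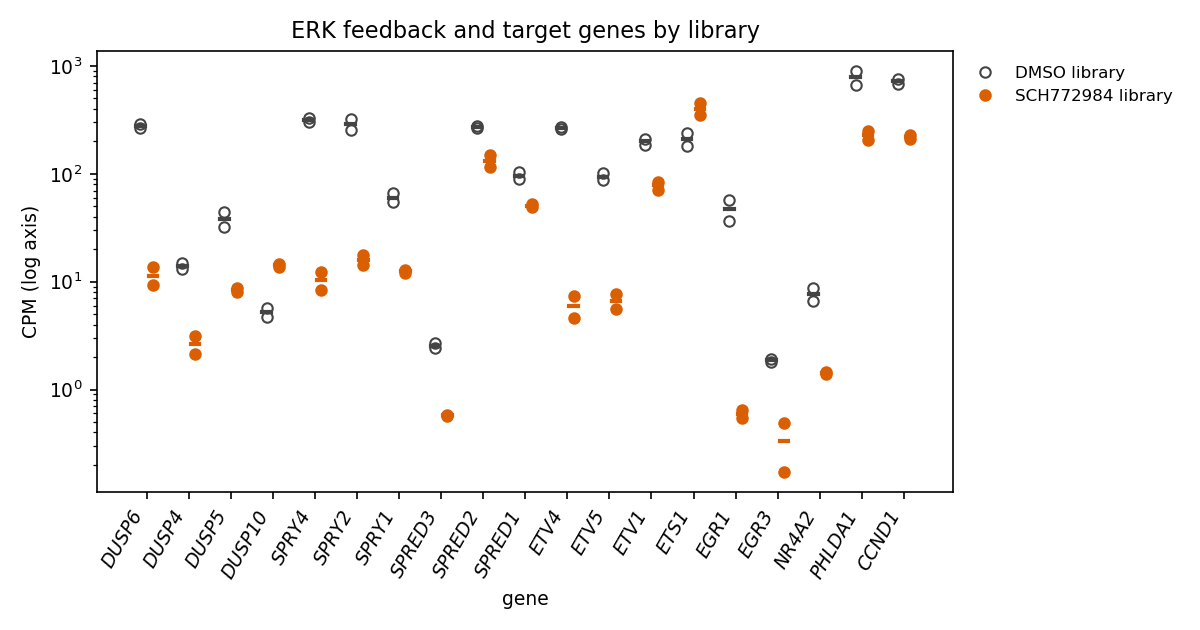
CPM (log axis) of 19 feedback and target genes in each DMSO library (open circles) and each SCH772984 library (filled circles), with a bar at each mean of 2. DUSP6, SPRY4 and ETV4 drop from 259 CPM or more to 13.6 CPM or less, while DUSP10 and ETS1 are higher with the inhibitor.

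Transcription factors of the ETS family moved in both directions. The PEA3 subfamily fell as a group of 3: ETV4 from 259 and 269 CPM to 7.34 and 4.61 CPM, ETV5 from 101 and 87.1 CPM to 7.72 and 5.53 CPM, and ETV1 from 213 and 187 CPM to 84.7 and 71.5 CPM. In that order the log2 fold changes of ETV4, ETV5 and ETV1 were -5.47 (SE 0.24), -3.83 (SE 0.17) and -1.36 (SE 0.12). ELK3, a ternary complex factor that partners SRF, fell by 0.73 (SE 0.13). ETS1, the founding member, rose from 182 and 240 CPM to 349 and 453 CPM, a change of 0.93 (SE 0.24, adjusted p = 0.0178), which did not pass without DMSO replicate 1 (adjusted p = 0.10) or inhibitor replicate 2 (adjusted p = 0.11). In all, 4 of 17 tested ETS genes fell and 3 rose, with a median of 0.04. The falls numbered 4 without any 1 library, and the rises 1 without DMSO replicate 1 or either inhibitor library.

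Among immediate-early genes, EGR1, a zinc finger factor induced within minutes of ERK activation, had the greatest fall, from 57.5 and 36.4 CPM to 0.647 and 0.546 CPM. EGR3 fell by 2.50 (SE 0.47), with values of -3.41 and -1.90 when inhibitor replicate 1 or 2 was left out. The nuclear receptor NR4A2 fell by 2.42 (SE 0.23) and PHLDA1, a pleckstrin-domain gene used as a readout of ERK activity, by 1.79 (SE 0.16). PHLDA1 was the most abundant of these, with 902 and 665 CPM in DMSO and 250 and 205 CPM with the inhibitor. Of 24 tested members of the EGR, NR4A and IER list 9 fell and 4 rose, with a median of -0.31, and 6 fell without either inhibitor library. ID3, an inhibitor of basic helix-loop-helix factors, rose by 1.08 (SE 0.14), and CTGF, a matrix-associated signalling protein, by 1.12 (SE 0.22).

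The AP-1 factors, dimers of FOS, JUN and MAF proteins, also divided by member. FOSL1 and MAFF fell by 3.42 (SE 0.69) and 3.22 (SE 0.43) and FOS by 1.69 (SE 0.23). FOSL1 did not pass without inhibitor replicate 1 (adjusted p = 0.056). JUND went the other way, from 55.2 and 48.1 CPM to 140 and 87.0 CPM, at 1.14 (SE 0.20, adjusted p = 0.00242). MAF, a large MAF factor, had 0 counts in both DMSO libraries and 40 over both inhibitor libraries, which is at least 5.88-fold higher, with the floor taken as 6 counts over the group. JUN at 0.47 (SE 0.26) and JUNB at 0.38 (SE 0.26) did not pass. In total 5 of 14 fell, 3 without inhibitor replicate 1, and 3 rose, 2 without either DMSO library or inhibitor replicate 1.

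In the cascade itself, NRAS and MAPK3, which encodes ERK1, did not pass the test, each at -0.10 (SE 0.12) on the log2 scale. Of 29 tested genes of the RAS, RAF, MEK, ERK and RSK list, 6 rose and 5 fell, with a median of -0.02. RASGRP3, an exchange factor that loads RAS with GTP, had the largest change, from 0.616 and 0.911 CPM to 3.77 and 3.48 CPM, at 2.23 (SE 0.36, adjusted p = 0.00162). RPS6KA5, which encodes the ERK-activated kinase MSK1, fell by 1.25 (SE 0.16), and the RSK genes RPS6KA3 and RPS6KA1 fell by 0.87 (SE 0.11) and 0.80 (SE 0.12). The rises numbered 3 without DMSO replicate 2 and 2 without inhibitor replicate 2, and without DMSO replicate 2 the falls numbered 3.

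Receptors and ligands moved without a common direction. Of 28 receptor tyrosine kinases 8 rose and 6 fell, with a median of -0.03. ROR1, a receptor that binds WNT5A, rose from 10.0 and 7.67 CPM to 36.1 and 37.9 CPM, at 2.07 (SE 0.17, adjusted p = 2.77e-05). IGF1R, the receptor of insulin-like growth factors, rose from 106 and 93.4 CPM to 159 and 175 CPM, at 0.74 (SE 0.10). KDR, a receptor for VEGF, had 23 counts in DMSO and 2 with the inhibitor, so DMSO was higher by a ratio of 13.0, with an exact 95% interval of 3.22 to 114 that, as for all ratios here, reflects counting error alone. It was 6.87 (interval 1.70 to 60.1) without inhibitor replicate 1 and at least 4.11 against a floor of 3 counts without inhibitor replicate 2. The falls of receptors numbered 4 without DMSO replicate 1, 3 without DMSO replicate 2, 2 without inhibitor replicate 1 and 3 without inhibitor replicate 2.

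Among the ligands and their regulators, TGFA, an activating ligand of EGFR, fell from 94.1 and 106 CPM to 12.8 and 10.4 CPM, at -3.11 (SE 0.22, adjusted p = 1.33e-05). ERRFI1, a feedback inhibitor of EGFR, fell by 1.59 (SE 0.09) and VEGFC, a lymphatic growth factor, by 1.61 (SE 0.28). HGF, the ligand of MET, had 3 counts in DMSO and 60 with the inhibitor, a ratio of 17.6 (interval 5.76 to 88.0). LRIG3, a membrane regulator of growth factor receptors, rose by 1.55 (SE 0.13). Of 36 tested members 10 rose and 10 fell, with 6 rises without DMSO replicate 2 or inhibitor replicate 2 and 6 falls without DMSO replicate 2 or inhibitor replicate 1.

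Genes of the cell division cycle fell in a narrow range of sizes. In bulk RNA, fewer cells expressing a gene and less of its RNA per cell cannot be told apart. Of 46 mitosis genes 35 fell and 0 rose, at a median of -0.56, where the whole table had 14.8% lower. No single library took the count under 28. The kinetochore gene SPC25 went from 51.5 and 54.7 CPM to 28.6 and 29.2 CPM, at -0.88 (SE 0.11, adjusted p = 0.000336), and the checkpoint kinase BUB1 from 395 and 379 CPM to 217 and 239 CPM, at -0.76 (SE 0.08). NUF2, a partner of SPC25 in the kinetochore, fell by 0.84 (SE 0.14) and CCNB1, the cyclin of mitotic entry, by 0.77 (SE 0.09). In each of these 4 genes both inhibitor libraries lay below both DMSO libraries. Over all tested genes, 66.8% had both inhibitor libraries on 1 side of both DMSO libraries.

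DNA replication genes fell in 36 of 47 cases and 0 rose, with a median of -0.54. POLE2, a subunit of DNA polymerase epsilon, fell from 28.2 and 25.4 CPM to 11.8 and 13.7 CPM, at -1.07 (SE 0.14), and MCM7, part of the replicative helicase, from 1476 and 1708 CPM to 810 and 850 CPM, at -0.94 (SE 0.14). The count was 18 without DMSO replicate 2 and 19 without inhibitor replicate 1. Homologous recombination genes fell in 17 of 31 cases and 0 rose, with a median of -0.47. RAD54L, a recombination motor protein, fell by 0.98 (SE 0.11) and FANCD2, of the Fanconi crosslink repair pathway, by 0.88 (SE 0.09). This count was 9 without DMSO replicate 2, 6 without inhibitor replicate 1 and 10 without inhibitor replicate 2. Of 18 E2F and RB family genes 11 fell and 0 rose, led by the repressor E2F8 at -0.88 (SE 0.12). That count hardly held without single libraries, at 6 without DMSO replicate 1, 1 without DMSO replicate 2, and 2 without either inhibitor library.

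The G1 regulators changed unevenly. CCND1, which encodes cyclin D1, fell from 687 and 756 CPM to 231 and 208 CPM. CDK2, the kinase of S phase entry, fell by 0.70 (SE 0.08), and CDKN1B, which encodes the CDK inhibitor p27, rose by 0.48 (SE 0.10, adjusted p = 0.00616). Of 18 members 8 fell and 2 rose, with 4 falls without DMSO replicate 2 or either inhibitor library and 1 rise without DMSO replicate 2 or inhibitor replicate 1. Nucleotide synthesis enzymes fell in 18 of 29 cases, with a median of -0.52, among them the CTP synthase CTPS2 at -0.94 (SE 0.11) and the purine enzyme GART at -0.66 (SE 0.10). Without DMSO replicate 2 and inhibitor replicate 1 this count was 9 and 10.

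Promoter letters of the mitosis genes were compared with all promoters in the RefSeq table of build GRCh38.p14, in windows of 250 bases before to 50 bases after the start. The CHR core TTTGAA, a motif of late cell cycle genes, was found on either strand in 28 of 39 matched mitosis promoters (71.8%) and in 15.4% of the 27305 promoters in the table. CCAAT, the NF-Y motif, was found in 31 of 39 (79.5%) and 35.7%. In the DNA replication list TTTGAA was found in 1 of 40 (2.50%) and CCAAT in 23 of 40 (57.5%). A match is a description of letters and does not show binding.

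Genes of cell survival and of the PI3K and FOXO branch followed their own pattern. BMF, a BH3-only death gene, rose from 18.0 and 12 CPM to 80.8 and 62.8 CPM, at 2.26 (SE 0.26, adjusted p = 0.000233). BOK, a BAX-like effector, rose by 1.28 (SE 0.10). Against these, PMAIP1, which encodes NOXA, another BH3-only protein, fell from 139 and 106 CPM to 29.8 and 31.2 CPM, at -2.01 (SE 0.21), and the survival gene MCL1 fell by 0.61 (SE 0.12). Of 17 tested BCL2 family genes 5 rose and 3 fell, with a median of -0.11. The rises numbered 3 without DMSO replicate 2 and 2 without inhibitor replicate 1, and the falls 2 without either.

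PIK3IP1, an inhibitor of PI3K and a FOXO target, rose by 1.97 (SE 0.30), and FOXO1 itself by 0.72 (SE 0.12). SGK1, a kinase related to AKT, fell from 77.0 and 102 CPM to 17.7 and 23.3 CPM, at -2.13 (SE 0.32). Of 28 members 8 rose and 2 fell, with 5 rises without DMSO replicate 2 and 4 without inhibitor replicate 1. In the MYC network the antagonist MXD4 rose from 20.5 and 15.5 CPM to 76.1 and 51.8 CPM, at 1.83 (SE 0.24), while MYC had 125 and 155 CPM in DMSO and 137 and 134 CPM with the inhibitor and did not pass.

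Of 29 tested sarcomere genes, which build the contractile unit of striated muscle, 14 rose and 1 fell, with a median of 0.72. TNNI1, the slow troponin I, went from 0.264 and 0.152 CPM to 10.5 and 11.2 CPM, and TNNC1, the matching troponin C, from 0.792 and 0.797 CPM to 7.61 and 11.1 CPM. MYOM1, which crosslinks myosin at the M band, rose by 3.07 (SE 0.32), and TRIM63, a muscle ubiquitin ligase, had 4 counts in DMSO and 52 with the inhibitor, a ratio of 11.5 (interval 4.22 to 43.7). Another 31 of the 60 listed sarcomere genes were too low to be tested, and those that were tested may have passed the filter through the inhibitor libraries alone. The rises numbered 8 without DMSO replicate 2 and 7 without inhibitor replicate 1, where the fall was lost too.

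Of 20 tested lineage factors 6 rose and 1 fell, with 3 rises without DMSO replicate 2 or inhibitor replicate 1 and 0 falls without DMSO replicate 1 or either inhibitor library. MSC, which encodes musculin, a repressor of MYOD1, had the greatest rise, from 0.748 and 1.44 CPM to 22.9 and 17.4 CPM, at 4.17 (SE 0.32, adjusted p = 2.21e-05). The MSC change was 3.80 without DMSO replicate 1 and 4.77 without DMSO replicate 2. The list held 30 lineage factors, and those not tested were too low in counts. CDH15, the muscle cadherin, rose by 3.54 (SE 0.44). The small heat shock proteins, chaperones of the contractile apparatus, rose in 5 of 7 tested cases, with 3 of 10 listed members too low to be tested. CRYAB entered the test through the inhibitor libraries alone, and HSPB3 may have done so. HSPB7 went from 1.01 and 0.987 CPM to 26.1 and 28.9 CPM, at 4.78 (SE 0.24), and HSPB3 had 1 count in DMSO and 49 with the inhibitor, a ratio of 43.2 (interval 7.41 to 1743). That ratio was 23.2 (interval 3.98 to 936) without DMSO replicate 1 and at least 6.68 against a floor of 3 counts without DMSO replicate 2. CRYAB had 1 and 2 counts in DMSO but 78 and 239 with the inhibitor, so its replicates differ in size. The classical heat shock and unfolded protein genes did not follow: 0 of 25 rose and 9 fell, such as HSP90AA1 at -0.69 (SE 0.14), which did not pass without inhibitor replicate 1 (adjusted p = 0.054), with 4 falls without DMSO replicate 2 and 3 without inhibitor replicate 1.

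Smooth muscle contractile genes rose in 15 of 34 tested cases and fell in 4, with a median of 0.27 and at least 12 rises without any 1 library. ACTA2, smooth muscle alpha actin, went from 1.50 and 1.14 CPM to 12.7 and 25.9 CPM, and TAGLN, which encodes the actin-binding protein SM22, from 6.38 and 6.45 CPM to 39.7 and 69.7 CPM, at 3.09 (SE 0.24). The abundant members CALD1 and TPM1, which encode caldesmon and tropomyosin 1, rose by 1.60 (SE 0.14) and 1.45 (SE 0.17). ACTG2, enteric smooth muscle actin, had 2 and 3 counts in DMSO and 41 and 94 with the inhibitor, a ratio of 23.8 (interval 9.96 to 74.6), or 15.3 (6.05 to 49.6) without inhibitor replicate 2. SVIL, a membrane-linked actin binder, fell by 1.23 (SE 0.11). SRF, the factor through which many of these genes are controlled, had 57.0 and 61.4 CPM in DMSO and 51.4 and 55.7 CPM with the inhibitor and did not pass at -0.14 (SE 0.11). The falls numbered 2 without either DMSO library and 1 without inhibitor replicate 1.

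SRF binds the CArG box and is known to act with ternary complex factors downstream of ERK at some genes and with myocardin or MRTF proteins at others. EGR1 fell and the actin genes ACTG2 and ACTC1 rose with the inhibitor, and all 3 RefSeq promoter windows hold this motif upstream of the start. The windows, of build GRCh38.p14, are shown because they put genes of opposite response side by side. They are selected examples, and whether the motif goes with the response was not tested. They lie at chr5:138465229-138465528 on the plus strand for EGR1, at chr2:73892758-73893057 on the plus strand for ACTG2 and at chr15:34795500-34795799 on the minus strand for ACTC1. Capitals mark each CArG box.
EGR1: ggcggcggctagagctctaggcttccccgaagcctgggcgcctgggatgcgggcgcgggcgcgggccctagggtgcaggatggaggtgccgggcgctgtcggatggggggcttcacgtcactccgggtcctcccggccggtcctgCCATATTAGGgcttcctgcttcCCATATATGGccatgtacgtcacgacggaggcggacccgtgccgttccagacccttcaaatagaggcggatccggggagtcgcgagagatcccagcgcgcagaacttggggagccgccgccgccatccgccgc
ACTG2: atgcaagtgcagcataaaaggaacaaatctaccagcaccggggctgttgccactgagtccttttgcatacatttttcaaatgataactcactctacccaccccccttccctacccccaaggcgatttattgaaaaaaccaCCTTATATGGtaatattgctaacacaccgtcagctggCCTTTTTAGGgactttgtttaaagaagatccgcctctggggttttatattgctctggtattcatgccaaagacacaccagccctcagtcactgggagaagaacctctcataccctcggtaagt
ACTC1: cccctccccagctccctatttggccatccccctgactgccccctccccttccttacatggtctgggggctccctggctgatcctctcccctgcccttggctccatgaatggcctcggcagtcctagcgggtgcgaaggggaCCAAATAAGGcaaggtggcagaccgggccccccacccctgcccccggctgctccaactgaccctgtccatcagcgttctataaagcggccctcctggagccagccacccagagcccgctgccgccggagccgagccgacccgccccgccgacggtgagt
EGR1 has 2 CArG boxes, at -105 to -96 and -83 to -74 from the start, ACTG2 also has 2, at -110 to -101 and -73 to -64, and ACTC1 has 1, at -109 to -100. A CArG box on either strand was found in 351 of 27305 promoters in the table (1.29%) and in 7 of 28 matched promoters of the smooth muscle list (25%). Among those 7, ACTG2, CNN2 and FLNA rose, and FHL2, MYLK, SRF and TPM4 did not pass. In the whole smooth muscle list 15 of 34 tested members rose (44.1%). FLNA did not pass without DMSO replicate 1 (adjusted p = 0.12) or either inhibitor library (adjusted p = 0.064 and 0.11).

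**Figure D3:**
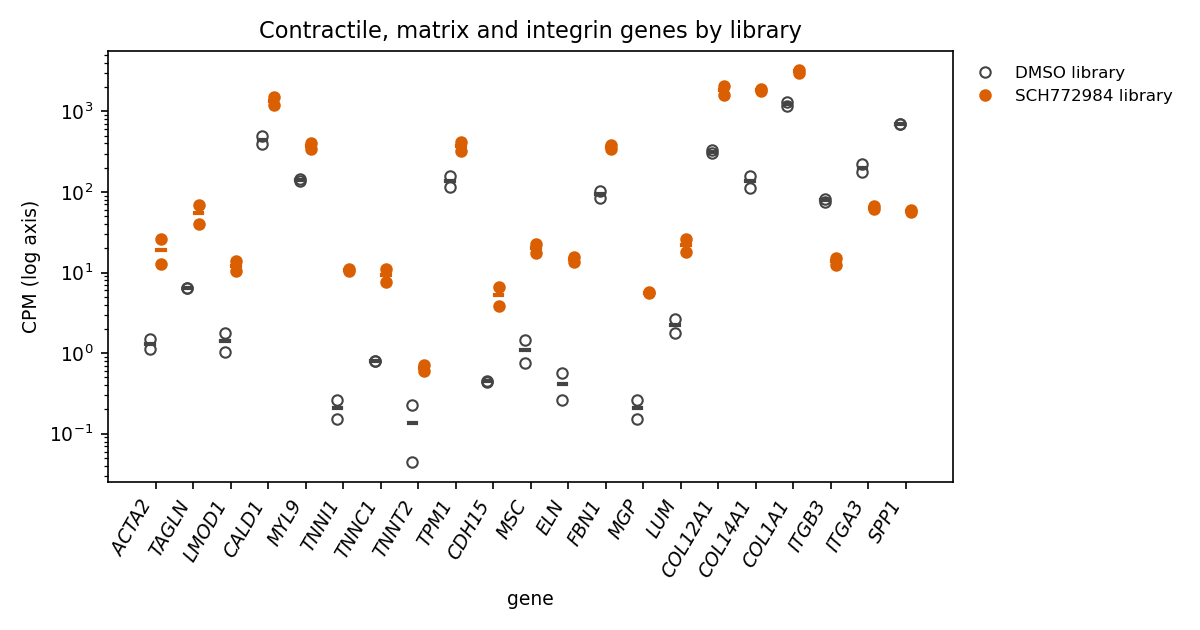
CPM (log axis) of 21 contractile, matrix and integrin genes in each DMSO library (open circles) and each SCH772984 library (filled circles), with a bar at each mean of 2. TNNI1, ELN and MGP lie under 1 CPM in both DMSO libraries and above 5 CPM in both inhibitor libraries, while ITGB3, ITGA3 and SPP1 are lower with the inhibitor.

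Elastic fibre and matrix glycoprotein genes rose in 22 of 39 tested cases and fell in 5, with a median of 0.58, against 13.2% higher over all tested genes, and at least 16 rose without any 1 library. ELN, which encodes elastin, went from 0.572 and 0.266 CPM to 13.7 and 15.7 CPM, at 5.15 (SE 0.32). The ELN change was 5.77 without DMSO replicate 1 and 4.70 without DMSO replicate 2. FBN1, the fibrillin on which elastin is laid down, went from 103 and 84.0 CPM to 339 and 384 CPM, at 1.95 (SE 0.12). MGP, an inhibitor of matrix calcification, had 10 counts in DMSO and 313 with the inhibitor, a ratio of 27.6 (interval 14.8 to 58.2). MGP entered the test through the inhibitor libraries alone, so the filter favoured its rise. The filament protein MATN2 rose by 3.42 (SE 0.18) and the microfibril protein MFAP4 by 2.62 (SE 0.31). TGFBI, an integrin-binding matrix protein, fell from 63.8 and 58.1 CPM to 14.6 and 11.9 CPM, at -2.20 (SE 0.12). FN1, which encodes fibronectin, did not pass at -0.12 (SE 0.11).

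Collagens rose in 16 of 34 tested cases and fell in 5, with a median of 0.44 and 14 to 17 rises without 1 library. COL14A1, a fibril-associated collagen, went from 159 and 111 CPM to 1805 and 1880 CPM, at 3.77 (SE 0.24, adjusted p = 6.45e-06), and COL1A1, the main fibrillar collagen of bone and tendon, from 1312 and 1168 CPM to 3231 and 3037 CPM, at 1.34 (SE 0.10). COL16A1 rose by 2.12 (SE 0.12). The network-forming COL8A1 and the transmembrane COL13A1 fell, by 2.50 (SE 0.12) and 2.25 (SE 0.15). The falls numbered 3 without DMSO replicate 2 or either inhibitor library. Of 21 proteoglycans 11 rose and 3 fell, with 6 rises without either DMSO library or inhibitor replicate 2 and 7 without inhibitor replicate 1. The list held 33 proteoglycans, and those not tested were too low in counts. HSPG2, which encodes the basement membrane proteoglycan perlecan, rose by 1.48 (SE 0.12), and the cell surface syndecan SDC1 fell by 1.33 (SE 0.20).

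Bone matrix genes showed a reversal between 2 proteins of the same family. IBSP, bone sialoprotein, had 6 counts in DMSO and 1212 with the inhibitor, whereas SPP1, osteopontin, fell from 699 and 696 CPM to 60.5 and 56.1 CPM, at -3.58 (SE 0.18, adjusted p = 1.94e-06). MEPE, another member of that family, had 0 counts in DMSO and 28 with the inhibitor, at least 4.12-fold higher against a floor of 6 counts over the group, and did not pass without DMSO replicate 2 (adjusted p = 0.057). ALPL, the alkaline phosphatase of mineralising cells, rose by 1.37 (SE 0.13). Of 22 listed bone genes 16 were tested. IBSP entered the test through the inhibitor libraries alone, and MEPE may have done so. Of the 16, 7 rose and 4 fell, with 4 rises and 1 fall without DMSO replicate 2 and 2 falls without inhibitor replicate 2.

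Integrins and laminins, by contrast, fell more often than they rose, in 10 of 30 tested cases against 5, with a median of -0.14. ITGB3, the beta chain of the vitronectin receptor, went from 75.9 and 81.4 CPM to 12.3 and 15.2 CPM, at -2.52 (SE 0.24), and ITGA6, a laminin receptor chain, from 235 and 219 CPM to 70.6 and 69.7 CPM, at -1.69 (SE 0.10). ITGA9 rose by 1.28 (SE 0.17), and so did the laminin chains LAMA4 at 1.23 (SE 0.19) and LAMB2 at 0.90 (SE 0.11). The falls numbered 5 without inhibitor replicate 1 and 6 without inhibitor replicate 2. CADM1, an immunoglobulin-type adhesion molecule, rose from 42.0 and 43.7 CPM to 367 and 406 CPM, at 3.17 (SE 0.21), in a list of 26 cadherins and adhesion molecules with 8 rises and 4 falls, 1 fall without inhibitor replicate 1. Of 46 proteases and inhibitors 12 rose and 8 fell, with 7 and 8 rises without DMSO replicate 2 and inhibitor replicate 1. PLAU, the urokinase plasminogen activator, fell by 1.95 (SE 0.32), and ADAMTS9, a versican-cutting protease, rose by 2.36 (SE 0.21).

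Secreted guidance and developmental signals rose at several points. Semaphorins, plexins and neuropilins, which steer migrating cells and axons, rose in 14 of 30 tested cases and fell in 3, with a median of 0.39 and at least 10 rises without any 1 library. SEMA3D went from 7.53 and 6.68 CPM to 175 and 230 CPM, at 4.83 (SE 0.29), and NRP2, a neuropilin that serves as a semaphorin co-receptor, from 51.2 and 53.9 CPM to 168 and 163 CPM, at 1.66 (SE 0.11). Of 55 listed WNT pathway genes 40 had enough counts to be tested, and of these 16 rose and 6 fell. LGR4, a receptor for R-spondins, rose from 62.3 and 60.8 CPM to 436 and 432 CPM, at 2.82 (SE 0.12, adjusted p = 9.63e-07), and the ligand WNT2B by 2.97 (SE 0.23), while the ligands WNT7B and WNT5B fell by 3.51 (SE 0.65) and 2.12 (SE 0.16). AXIN2, a widely used target of beta-catenin, rose by 0.83 (SE 0.17), but did not pass without DMSO replicate 2 (adjusted p = 0.053).

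Hedgehog pathway genes rose in 8 of 14 tested cases and fell in 1, with a median of 0.49 with at least 6 rises without any 1 library and 2 falls without DMSO replicate 1. The receptor PTCH1, itself a target of the pathway, went from 295 and 323 CPM to 873 and 819 CPM, at 1.45 (SE 0.12), and the transcription factor GLI1 rose by 0.96 (SE 0.18). GLI3, which largely acts as a repressor, fell by 0.85 (SE 0.12). In the TGF-beta and BMP list 14 of 48 rose and 8 fell, with a median of -0.03 and 5 falls without DMSO replicate 2 or inhibitor replicate 1 and 4 without inhibitor replicate 2. The ligands diverged, with BMP4 at 2.21 (SE 0.19) and TGFB3 at 2.33 (SE 0.22) but BMP2 at -1.86 (SE 0.22). The inhibitory SMAD6 rose by 1.50 (SE 0.12) and GREM1, a BMP antagonist, by 2.27 (SE 0.38).

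**Figure D4:**
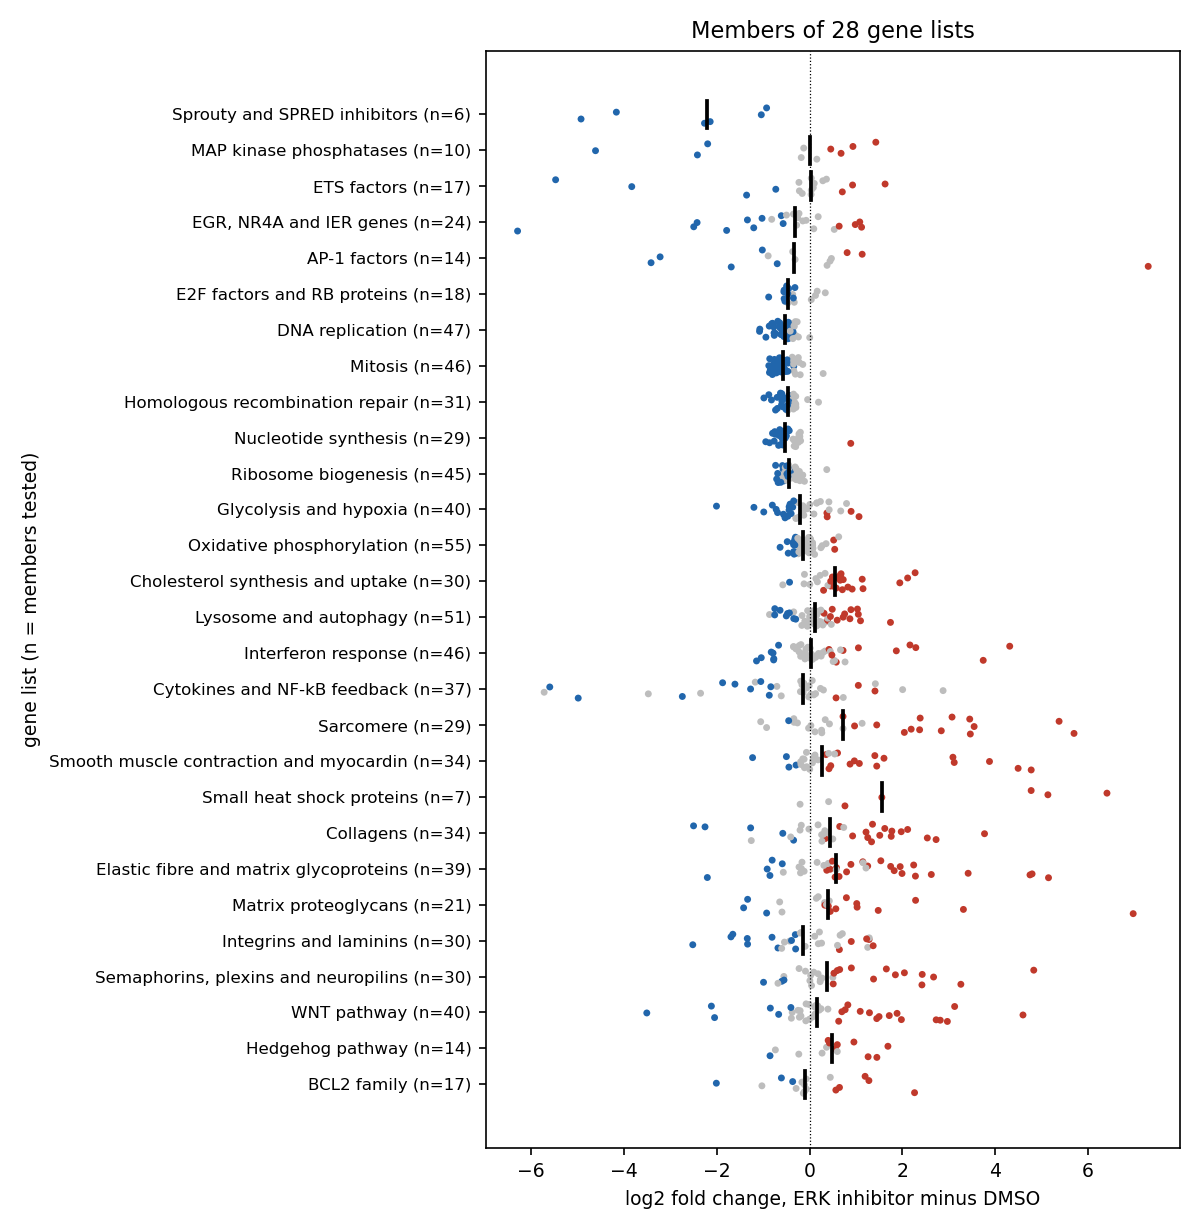
Log2 fold change with the inhibitor (horizontal axis) of every tested member of 28 gene lists (rows), with a black bar at each list's median. Red points rose, blue points fell and grey points did not pass; cell division lists form narrow blue bands at medians between -0.56 and -0.46, while sarcomere and matrix lists spread to the right.

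Among metabolic lists, cholesterol synthesis and uptake genes rose in 20 of 30 tested cases and fell in 1, with a median of 0.55 with at least 15 rises without any 1 library and 0 falls without DMSO replicate 2 or inhibitor replicate 1. LSS, the cyclase of the sterol ring, rose from 109 and 111 CPM to 201 and 190 CPM, at 0.83 (SE 0.08). The sterol exporter ABCG1 rose by 2.12 (SE 0.30). Glycolysis and hypoxia genes fell in 16 of 40 cases and rose in 4, with 9 falls without DMSO replicate 2 and 7 without inhibitor replicate 1, and 0 to 3 rises without 1 library. CA12, a carbonic anhydrase, fell from 25.4 and 31.0 CPM to 7.38 and 6.69 CPM, at -2.0 (SE 0.22).

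Ribosome biogenesis genes fell in 18 of 45 cases and 0 rose, with a median of -0.45, such as the fibrillarin gene FBL at -0.62 (SE 0.10). That count depended on single libraries, at 3 without DMSO replicate 2, 3 without inhibitor replicate 1 and 10 without inhibitor replicate 2. Oxidative phosphorylation genes fell in 14 of 55 cases and rose in 2, with a median of -0.14, and led by the complex III subunit UQCRH at -0.63 (SE 0.08). The falls numbered 1 without DMSO replicate 2, 2 without inhibitor replicate 1 and 5 without inhibitor replicate 2, and the rises 0 without either DMSO library or inhibitor replicate 1.

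Interferon-response and cytokine genes changed gene by gene. Of 46 interferon-response genes 10 rose (21.7%) and 7 fell (15.2%, near the 14.8% of all tested genes), with a median of 0.03. IFI44L rose from 2.51 and 1.48 CPM to 46.1 and 32.7 CPM, at 4.32 (SE 0.33). The antiviral factor TRIM22 had 3 counts in DMSO and 49 with the inhibitor, a ratio of 14.4 (interval 4.65 to 72.3). The TRIM22 ratio was 23.2 (3.98 to 936) without DMSO replicate 1 and 10.0 (2.63 to 85.0) without DMSO replicate 2. HERC5, the ligase for ISG15, fell by 1.04 (SE 0.12). Rises numbered 5 without DMSO replicate 2 and 6 without inhibitor replicate 2, and falls 3 without DMSO replicate 1 or inhibitor replicate 2. Of 37 cytokine and NF-kB feedback genes 9 fell and 3 rose. The interleukin 6 family receptor OSMR fell from 143 and 123 CPM to 42.3 and 44.8 CPM, at -1.61 (SE 0.12), and SOCS1, an inhibitor of cytokine signalling, rose by 1.41 (SE 0.17). LIF, another cytokine of that family, fell from 77.0 and 84.0 CPM to 11.3 and 12.8 CPM, at -2.74 (SE 0.65), but did not pass without DMSO replicate 2, inhibitor replicate 1 or inhibitor replicate 2 (adjusted p = 0.057, 0.095 and 0.063). The cytokine falls numbered 3, 2 and 4 without these libraries.

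The greatest rises and falls over the whole table included several genes outside these lists. CD24, a small surface glycoprotein whose processed copies make its counts uncertain, rose from 8.67 and 9.30 CPM to 150 and 190 CPM, at 4.24 (SE 0.20). OLR1, a receptor for oxidised LDL, had 1 and 12 counts in DMSO and 98 and 340 with the inhibitor, so its replicates differ in size. PCSK1, a prohormone convertase, fell from 36.1 and 27.5 CPM to 1.48 and 0.955 CPM, at -4.71 (SE 0.27), and VGF, a neuropeptide precursor, by 3.54 (SE 0.25). DNER, a neuronal NOTCH ligand, fell by 3.87 (SE 0.24) and ANGPT2, which modulates the TIE2 receptor, by 3.67 (SE 0.31). ESM1, a secreted proteoglycan, fell by 4.14 (SE 0.95), but did not pass without DMSO replicate 2, inhibitor replicate 1 or inhibitor replicate 2 (adjusted p = 0.059, 0.086 and 0.059).

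Some genes were close to silent in one group. With at most 3 counts in each DMSO library and at least 1 CPM in both inhibitor libraries stood 14 genes, among them ACTG2, CPB1, CRYAB, DCN, GRIA2, IGF1, ITIH3, LEFTY2, MYL4, NUPR1, SLITRK1, TAC3 and TNN. LEFTY2, a NODAL antagonist, had 2 and 1 counts in DMSO and 128 and 104 with the inhibitor, a ratio of 68.3 (interval 23.1 to 333). The LEFTY2 ratio was 109.9 (19.5 to 4361) without DMSO replicate 1 and 47.4 (13.0 to 394) without DMSO replicate 2. SLITRK1, a synaptic adhesion protein, had 0 counts in DMSO and 104 with the inhibitor, at least 15.3-fold higher. The opposite pattern held for 5 genes, among them IL1B, MYEOV, SUCNR1 and TM4SF18. SUCNR1, the succinate receptor, had 49 and 29 counts in DMSO and 1 in each inhibitor library, a ratio of 44.2 (interval 11.8 to 371). For IL1B the DMSO libraries differed, at 35 and 107 counts, and its call was lost without DMSO replicate 2, inhibitor replicate 1 or inhibitor replicate 2 (adjusted p = 0.14, 0.14 and 0.10).

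The NRAS siRNAs gave a comparison with no shared control. The inhibitor response differed from the mean siRNA response in 1078 of 14761 genes (7.30%) by a test of the difference itself, 675 (4.57%) in the upward and 403 (2.73%) in the downward direction. The lowest differences were those of ETV4 at -4.57 (SE 0.29), EGR1 at -4.53 (SE 0.47), MYEOV at -4.48 (SE 0.60), SPRY4 at -3.73 (SE 0.22) and ETV5 at -3.59 (SE 0.22). The highest were those of IBSP at 5.84 (SE 1.00), DCN at 5.63 (SE 1.09), PDE11A at 4.85 (SE 0.54), ELN at 4.57 (SE 0.53) and TNNI1 at 4.43 (SE 0.77). IBSP, DCN and TNNI1 had 6, 2 and 10 counts over both DMSO libraries, so their fitted differences rest on few counts. IBSP and DCN also entered the test through the inhibitor libraries alone, so the filter favoured a high difference for them. The fitted inhibitor change of DCN was 10.3 without DMSO replicate 1 and 5.98 without DMSO replicate 2. Some genes passed with a single agent, and 36 passed with both in opposite directions. ETV5 fell with the inhibitor and stood at -0.24 (SE 0.13) with the siRNAs, where it did not pass, which does not show that it was unchanged. COL1A1 rose with the inhibitor and fell by 0.39 with the siRNAs, and its difference was 1.72. Both calls were shared by 694 genes, 16.8% of the inhibitor's calls and 59.1% of the 1174 siRNA calls (7.95% of tested genes), with 658 in the same direction. Across genes, which are not independent replicates, Pearson's r of the log2 fold changes was 0.541. Agent, time and control differ between both comparisons and cannot be told apart. The count of differing genes leaned on single libraries, at 343 without inhibitor replicate 1, 359 without DMSO replicate 2, 464 without DMSO replicate 1, 480 without nonspecific siRNA replicate 1, 594 without NRAS siRNA 1 replicate 2 and 660 without NRAS siRNA 2 replicate 1.

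**Figure D5:**
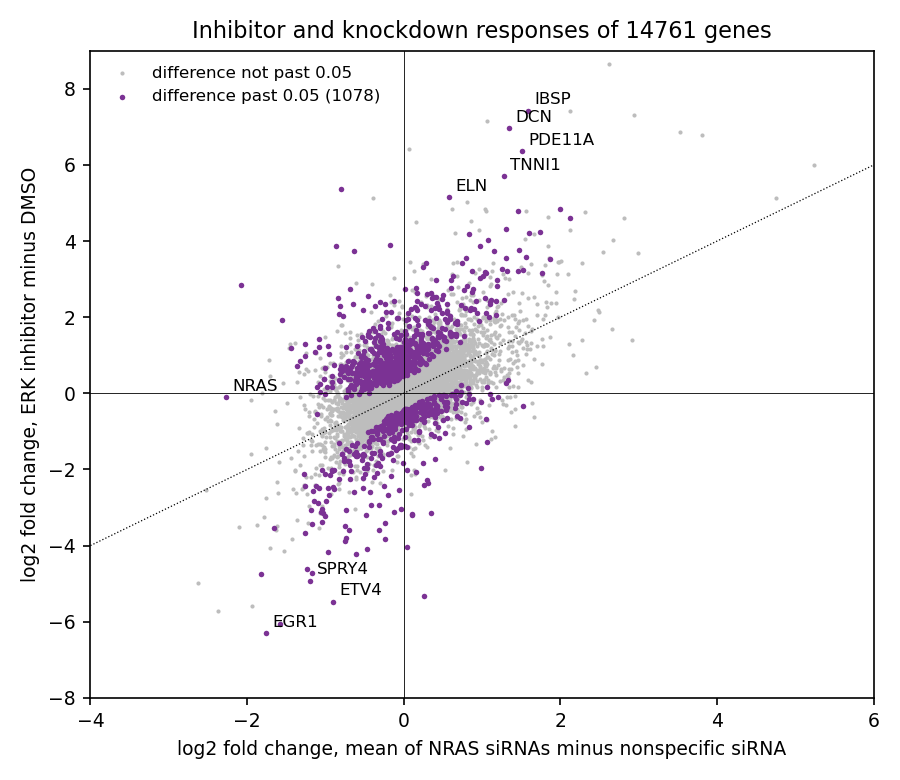
Log2 fold change with the inhibitor (vertical axis) against that with the mean of both NRAS siRNAs (horizontal axis, a narrower range), 1 point per tested gene, with a dotted line at equal change. Purple marks the 1078 genes whose 2 responses differed; EGR1, ETV4 and SPRY4 lie below the dotted line and IBSP, PDE11A and ELN above it.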

How the data were processed

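Total RNA of RD cells was made into stranded mRNA libraries, per the labels' protocols. The authors deposited raw read counts per gene as whole numbers. Tools named in the submitters' processing notes are bcl2fastq, TopHat2, SAMtools and HTSeq, and the builds are hg19 and GRCh37. The sources used here give no versions, annotation or strand setting. Counts of overlapping, antisense and near-identical genes are therefore uncertain. The 5 category rows that name no gene, 38.3 to 39.5% of reads, were left out.

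Groups came from sample titles. The test was edgeR 4.0.16 (R 4.3.3), quasi-likelihood, TMM scaling, a filterByExpr minimum of 10 counts, and all 10 libraries in 1 fit of 5 groups with 5 residual degrees of freedom, adjusted by Benjamini-Hochberg over 14761 genes at 0.05. The fit was also run on simulated counts with the same spread for every gene, which says nothing on how the real replicates differ. CPM use TMM-scaled library sizes. Log2 fold changes are inhibitor minus DMSO, with standard errors from the same fit. Genes with at most 10 counts in a group have ratios of summed counts, scaled to library size, with exact 95% intervals. The replicate numbers of the labels name libraries and do not state a pairing. The drug is spelled in more than 1 way in the labels, and SCH772984 is used.

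The members and gene lists were chosen with earlier results of these data known. From each list described, the text takes up to 6 of the largest changes past the threshold, with further members for their role, the 15 greatest rises and falls of at least 5 CPM, genes near 0 in 1 group, and the 5 highest and lowest differences from the siRNA response. COL1A1 in the siRNA comparison was chosen after its values were seen. For promoters, 11183 of 14761 tested genes (75.8%) matched RefSeq entries, under 80%, so no share over tested genes is given, nor for sarcomere and EGR lists, which matched in 69.0% and 70.8% of cases. Alternatives were other scalings, no filter, DESeq2 1.42.0, a replicate block, a fit of 4 libraries and each library left out. Some genes that this rule names are not reported here.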

Additional observations from a re-analysis of the deposited data

How the results depend on the processing

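No gene called with the inhibitor turned its direction under any of 10 alternatives, and 1519 of 4128 calls were kept in all of them, among them 778 of the 1236 of at least 2-fold. The total was 4067 with median-ratio scaling, 3935 with upper-quartile scaling, 4298 without the filter, 4099 with DESeq2 and 3988 with the 4 libraries alone. Upper-quartile scaling turned the balance, to 2210 higher and 1725 lower (56.2% higher against 47.2%), and put the median of all genes at 0.058 against 0.001. With the replicate number as a block the total was 5648, with 1353 of at least 2-fold, and all 4128 calls were kept. Whether equal numbers mark paired libraries is not stated in the labels. Without 1 library the total ran from 1875 to 3298 and the count of at least 2-fold from 870 to 1258. The difference from the siRNA response held 1596 genes without the filter, 1498 with DESeq2 and 2379 with the block, and 343 to 915 without 1 library. The cause of these shifts was not tested. Of the 167 genes named here that passed, 158 passed in all alternatives. DES, JUN and TPM4 did not pass in the main fit but passed in at least 1 alternative, so whether they changed is unsettled. The number of libraries per group and the floor of 3 counts limit what can be said of genes near 0.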

Other observations

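Cyclic nucleotide phosphodiesterases, which break down cAMP and cGMP, moved in both directions, with 4 of 18 tested members higher and 4 lower. The falls numbered 1 without DMSO replicate 2 or inhibitor replicate 2 and 2 without inhibitor replicate 1. PDE11A rose from 0.836 and 0.569 CPM to 53.2 and 61.9 CPM and PDE5A, which is specific for cGMP, from 27.6 and 14.1 CPM to 219 and 233 CPM, at 3.44 (SE 0.46). PDE4B, a cAMP enzyme, fell from 119 and 110 CPM to 49.1 and 38.8 CPM, at -1.38 (SE 0.13). Among KLF factors, KLF2 rose by 2.10 (SE 0.21) and KLF4 fell by 1.15 (SE 0.20), with 3 of 13 higher and 1 lower, or 2 lower without DMSO replicate 2. Of 39 mesenchymal and SOX factors 14 rose and 6 fell, with 3 falls without DMSO replicate 2 and 2 without inhibitor replicate 2. PRRX1, a factor of limb mesenchyme, rose from 58.4 and 47.2 CPM to 238 and 222 CPM, at 2.12 (SE 0.15). The chromatin proteins HMGA1 and HMGA2, abundant in embryonic and tumour cells, fell by 1.69 (SE 0.22) and 0.65 (SE 0.10), and HMGA1 has processed copies that make its counts uncertain.

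Neuronal genes were present in these RD cells and split as well. Of 28 listed members 17 had enough counts to be tested, with 6 lower and 4 higher. The neurofilament gene NEFM fell from 1508 and 976 CPM to 238 and 170 CPM, at -2.60 (SE 0.31), whereas SCG2, a secretory granule protein, rose from 23.8 and 29.3 CPM to 92.3 and 114 CPM, at 1.96 (SE 0.17). Of 31 tested fatty acid and lipid genes 9 rose (29%) and 2 fell (6.45%), against 13.2% and 14.8% over all tested genes. In lipid handling, FABP3, the fatty acid carrier of heart and muscle, rose by 3.18 (SE 0.24) and LPL, lipoprotein lipase, fell by 1.87 (SE 0.29). Of 51 lysosome and autophagy genes 13 rose and 8 fell, with the autophagy kinase ULK1 at 1.03 (SE 0.18). The rises there numbered 5 without DMSO replicate 2 and 6 without inhibitor replicate 1, and the falls 5 and 4 without the same libraries.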
